A study of Mus musculus with 2 samples.

Results

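The 9 genes H2-K1, H2-D1, B2m, Tap1, Tap2, Tapbp, H2-T23, H2-Q7 and Nlrc5 act in antigen presentation by MHC class I molecules. They were chosen by gene symbol, and all 9 were found among the 31253 features of the count tables. MHC class I molecules show peptides from inside a cell to CD8 T cells and are read by NK cell receptors. A heavy chain (H2-K1 or H2-D1 for the classical molecules) pairs with the light chain beta-2-microglobulin, encoded by B2m. Peptides are pumped into the endoplasmic reticulum by the transporter made of Tap1 and Tap2 and are loaded with the help of tapasin (Tapbp). H2-T23 encodes the non-classical molecule Qa-1, a ligand of the CD94/NKG2 receptors, and H2-Q7 encodes the non-classical molecule Qa-2. Nlrc5 is the transactivator of class I genes, and interferon signalling raises the expression of the pathway.

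These members were followed across immune cell groups and between 2 libraries of a mouse melanoma study. Live CD45+ cells, that is leukocytes, had been sorted from tumors of the mouse melanoma line B16 and profiled by droplet-based single-cell RNA sequencing of transcript 3′ ends. In the shSdc1 group the tumor cells carried a hairpin directed at Sdc1, which encodes the surface proteoglycan syndecan-1, and in the shRFP group a control hairpin. All hosts were wild-type mice, immunized under the skin with irradiated B16-GM-CSF cells. The hairpin-bearing cells went into the other flank 12 days later. The sources used here do not give age or sex of the mice. The genotype tag of the shSdc1 sample reads Sdc1 knock out (KO), but sample title and growth protocol name a hairpin, carried by the injected tumor cells. Tumors were taken after 16 days and 6 were pooled per group, and 1 library per group was made. There are thus no replicates, no difference below was tested, and all 95% intervals in brackets cover counting error only.

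The kept cells numbered 5313 in shSdc1 and 4983 in shRFP, with a median of 593 UMIs per shSdc1 cell and 650.0 UMIs per shRFP cell. A UMI (unique molecular identifier) marks 1 captured transcript, and the libraries shared 17 barcode sequences among kept cells. At least 1 UMI of the leukocyte genes Ptprc, Cd52, Coro1a and Laptm5 was present in 84.2% of shSdc1 cells and 84.0% of shRFP cells. Sdc1 itself, targeted in the injected cells and not in the sorted host cells, had 76 UMIs in shSdc1 and 102 in shRFP. The 12 genes of a dissociation stress list summed to 5947 CPM in shSdc1 and 10997 CPM in shRFP, a difference that runs through most cell groups. The 8 melanoma genes summed to 114 CPM in shSdc1 and 74.0 CPM in shRFP, with Sox10 at 0 in both. Red cell and fibroblast lists had at most 6 UMIs in either library, and the endothelial list had 128 in shSdc1 and 127 in shRFP. CPM is the number of UMIs of a gene per 1000000 UMIs of the cells in question.

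Of the members, 7 lie in or beside the major histocompatibility complex on chromosome 17 and are protein-coding genes of the GENCODE M21 annotation (build mm10). H2-K1 lies at chr17:33996017-34000347, minus strand, Tapbp at chr17:33915899-33929292, plus strand, Tap1 at chr17:34187553-34197225, plus strand and Tap2 at chr17:34203527-34216321, plus strand. H2-D1 lies at chr17:35262730-35267499, plus strand, H2-Q7 at chr17:35439155-35443773, plus strand and H2-T23 at chr17:36029773-36032855, minus strand. B2m (chr2:122147686-122153083, plus strand) and Nlrc5 (chr8:94434356-94527272, plus strand) lie on other chromosomes. Heavy chain genes are close copies of each other, which can split or discard reads. Of the 60-base words in the longest protein-coding transcript, 28.8% in H2-Q7, 21.2% in H2-T23, 9.74% in H2-D1 and 3.97% in H2-K1 also occur in a transcript of another gene. In the last 500 bases, where 3′ libraries have most of their reads, the shares were 3.63% for H2-Q7, 30.2% for H2-T23, 4.99% for H2-D1 and 0% for H2-K1, B2m, Tap1, Tap2, Tapbp and Nlrc5. The shared end words of H2-Q7 are in H2-Q5. Those of H2-T23 are in H2-T-ps and in genes outside the family such as Rab33b and Hook2, and those of H2-D1 are in genes such as Adsl and Kcnk4. Values of H2-T23, H2-D1 and H2-Q7 are uncertain to that extent.

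The bases before the gene start are shown for 3 members because class I genes are known to be switched on there by NF-kB, interferon regulatory factors and the complex that Nlrc5 joins. Capitals mark every match, on either strand, to 5 motifs. The first is GAAA, any 2 bases and GAAA, a strict form of the element of interferon regulatory factors (called ISRE). The others are CCTNGNNAC (X1 box), TGACG (X2 box core), ATTGG (Y box core) and GGG, any 2 bases, TT, any base and CC (kB). The sequences are from RefSeq, build GRCm38.p6, 5′ to 3′ in the direction of the gene, 250 bases each, for H2-K1 (chr17:34000348-34000597, minus strand), H2-Q7 (chr17:35438905-35439154, plus strand) and B2m (chr2:122147437-122147686, plus strand).
H2-K1: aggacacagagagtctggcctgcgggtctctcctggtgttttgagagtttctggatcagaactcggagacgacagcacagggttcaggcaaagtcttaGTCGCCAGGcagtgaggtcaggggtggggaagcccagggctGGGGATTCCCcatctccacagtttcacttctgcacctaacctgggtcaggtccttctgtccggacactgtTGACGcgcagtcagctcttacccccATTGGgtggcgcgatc
H2-Q7: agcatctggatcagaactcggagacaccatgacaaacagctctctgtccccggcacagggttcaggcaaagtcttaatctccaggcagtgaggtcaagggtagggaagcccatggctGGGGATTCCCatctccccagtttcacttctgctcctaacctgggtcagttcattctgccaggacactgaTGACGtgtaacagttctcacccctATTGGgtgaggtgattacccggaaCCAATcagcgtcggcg
B2m: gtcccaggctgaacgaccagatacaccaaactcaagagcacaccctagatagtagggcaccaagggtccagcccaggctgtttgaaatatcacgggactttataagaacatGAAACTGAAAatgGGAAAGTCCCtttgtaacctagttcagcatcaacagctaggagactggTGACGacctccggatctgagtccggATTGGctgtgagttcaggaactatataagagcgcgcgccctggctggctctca
No 2 matches overlap. The kB match of H2-K1 begins 111 bases before the start and that of H2-Q7 133 bases before it, both on the gene's strand. That of B2m, 126 bases before the start, is on the other strand. H2-K1 has 2 listed starts, of which the first was used, so its distances depend on that choice. In B2m an ISRE match begins 139 bases before the start, just ahead of the kB match. Promoter windows that also hold 50 bases after the start were found for 7 of the 9 members, H2-K1, H2-D1, H2-Q7, H2-T23, B2m, Tap1 and Tapbp. A kB match was in 4 of these 7 windows (H2-K1, H2-D1, H2-Q7 and B2m), against 4.71% of 27025 promoter windows of the table, and an ISRE match in 2 of 7 (B2m and H2-T23), against 3.49%. The X2 core was in 5 of 7 and the Y box core in 7 of 7, against 21.02% and 37.9% of all windows. X1 letters were in 2 of 7 (H2-K1 and H2-D1), against 16.0%. A sixth motif that was searched had a match in 0 of 7, against 8.47%. H2-K1, H2-D1 and H2-Q7 are copies of each other, so their windows are not independent. A match is a run of letters, not a shown binding site. Only these exact letters were searched, so a window without a match can still hold a variant of the element.

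Across cell groups, class I transcripts were most abundant in T-like, NK-like and migratory DC-like cells of both libraries. The 9 members summed to 13546 CPM in migratory DC-like, 13334 in T-like and 12906 in NK-like cells of shSdc1. In shRFP the same groups stood at 12734, 12470.4 and 12747 CPM. Within each library these 3 levels overlapped in their intervals, and no other of the 7 classes reached them. Within the monocyte/macrophage-like class, the cluster led by the interferon response genes Ifit3 and Rsad2 had 13579.5 CPM in shSdc1 and 11037 CPM in shRFP. Monocyte/macrophage-like cells, the largest group, had 8981 CPM in shSdc1 and 6322 CPM in shRFP. They came after those 3 classes in shSdc1, while in shRFP B and plasma-like and conventional DC 1-like cells stood above them. Conventional DC 1-like cells were lowest in shSdc1 at 6830.4 CPM, with an interval that overlapped with that of conventional DC 2-like cells, and in shRFP their interval overlapped with those of the monocyte/macrophage-like and conventional DC 2-like groups. H2-K1, H2-D1 and B2m gave 82.7% of the summed UMIs in shSdc1 and 84.2% in shRFP, so the sum mostly follows those 3 genes.

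**Figure D1:**
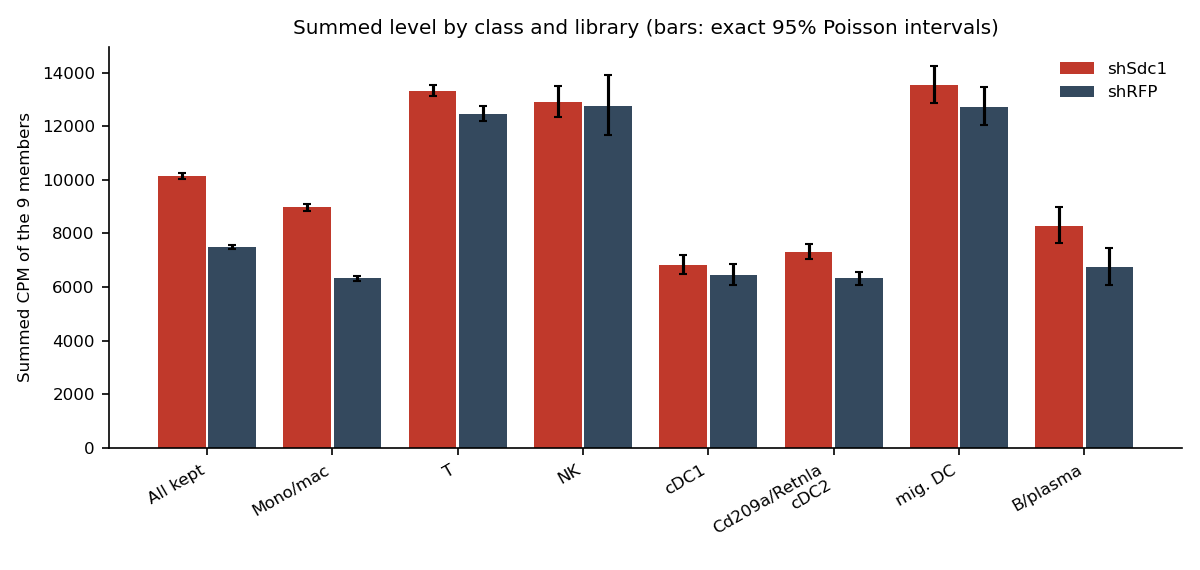
Summed CPM of the 9 members (y axis, from 0) in all kept cells and in 7 cell classes (x axis), with shSdc1 in red to the left of shRFP in dark blue and exact 95% Poisson intervals. The monocyte/macrophage-like bars stand at 8981 CPM in shSdc1 and 6322 CPM in shRFP, while the NK-like bars overlap in their intervals.

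The classical heavy chains and H2-Q7 were high in the same 3 classes, T-like, NK-like and migratory DC-like cells. H2-K1 had 4169 CPM in T-like and 1767 CPM in monocyte/macrophage-like cells of shSdc1, and 3850.4 and 1219 CPM in those of shRFP. H2-D1 was flatter, at 3419 CPM in T-like and 2571 CPM in monocyte/macrophage-like cells of shSdc1, and 3406 and 2070.0 CPM in those of shRFP. H2-Q7 had the steepest contrast of the 3 genes. It stood at 1553 CPM in T-like and 203 CPM in monocyte/macrophage-like cells of shSdc1, and at 1376 and 131 CPM in those of shRFP. T-like and NK-like cells did not differ beyond their intervals for H2-Q7 in either library, and neither did monocyte/macrophage-like and conventional DC 2-like cells.

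B2m followed another order. In shSdc1 it was highest in monocyte/macrophage-like (3658 CPM) and migratory DC-like cells (3632 CPM), whose intervals overlapped. In shRFP migratory DC-like cells had 3251 CPM and monocyte/macrophage-like cells 2315 CPM. By point value monocyte/macrophage-like cells were there below NK-like and T-like cells, with intervals that overlapped with those of both. Conventional DC 1-like cells were lowest in both libraries, at 1337 CPM in shSdc1 and 1026 CPM in shRFP, and overlapped with B and plasma-like cells in shRFP.

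Over the 7 classes, Tap1 of the peptide transporter was highest, by point value, in conventional DC 1-like and migratory DC-like cells. Conventional DC 2-like cells were lower, with Tap1 at 202 CPM in shSdc1 and 109 CPM in shRFP. Their Tap2 stood at 118 CPM in shSdc1 and 107 CPM in shRFP. Conventional DC 1 cells are known for cross-presentation, the route by which antigen taken up from outside reaches class I. Tap1 stood at 409 CPM in conventional DC 1-like and 412 CPM in migratory DC-like cells of shSdc1, and at 470.4 and 302 CPM in those of shRFP. T-like cells came next, at 329 CPM in shSdc1 and 275 CPM in shRFP, with intervals that overlapped with those of both dendritic cell classes in shSdc1 and of migratory DC-like cells in shRFP. Monocyte/macrophage-like cells were lowest for Tap1 by point value, at 143 CPM in shSdc1 and 86.3 CPM in shRFP. In both libraries those intervals overlapped with the ones of NK-like and B and plasma-like cells, among others. Among the classes Tap2 was also highest in conventional DC 1-like cells, at 339.9 CPM in shSdc1 and 242 CPM in shRFP, and lowest in monocyte/macrophage-like cells, at 73.4 CPM in shSdc1 and 62.2 CPM in shRFP. In shRFP the Tap2 intervals of conventional DC 1-like, T-like and NK-like cells overlapped. The Tap2 interval of monocyte/macrophage-like cells overlapped there with those of B and plasma-like and migratory DC-like cells. Some T-like sub-clusters reached these levels. Tap1 stood at 413 CPM in shSdc1 and 343 CPM in shRFP in regulatory-like T cells and at 368 CPM in shSdc1 and 503 CPM in shRFP in cycling-like T cells, and Tap2 at 269.5 CPM in shSdc1 and 328 CPM in shRFP in regulatory-like T cells. Tapbp led among the classes in migratory DC-like cells, at 438 CPM in shSdc1 and 386 CPM in shRFP. Those intervals overlapped with that of the next class, NK-like at 315 CPM in shSdc1 and conventional DC 1-like at 307 CPM in shRFP.

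H2-T23 was lowest in monocyte/macrophage-like cells, at 295 CPM in shSdc1 and 247 CPM in shRFP, and those intervals overlapped with no other class in shSdc1 and with B and plasma-like cells in shRFP. Its other classes lay between 476 and 725 CPM in shSdc1 and between 359.6 and 602 CPM in shRFP, with neighbours overlapping. Nlrc5 was scarce everywhere. It had 112 UMIs in shSdc1 and 37 in shRFP T-like cells, or 104 CPM in shSdc1 and 65.5 CPM in shRFP, and 51 UMIs in shSdc1 and 37 in shRFP monocyte/macrophage-like cells, or 25.8 CPM in shSdc1 and 15.1 CPM in shRFP. In NK-like, conventional DC, migratory DC-like and B and plasma-like cells it had under 20 UMIs in both libraries together, the minimum for a comparison here.

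**Figure D2:**
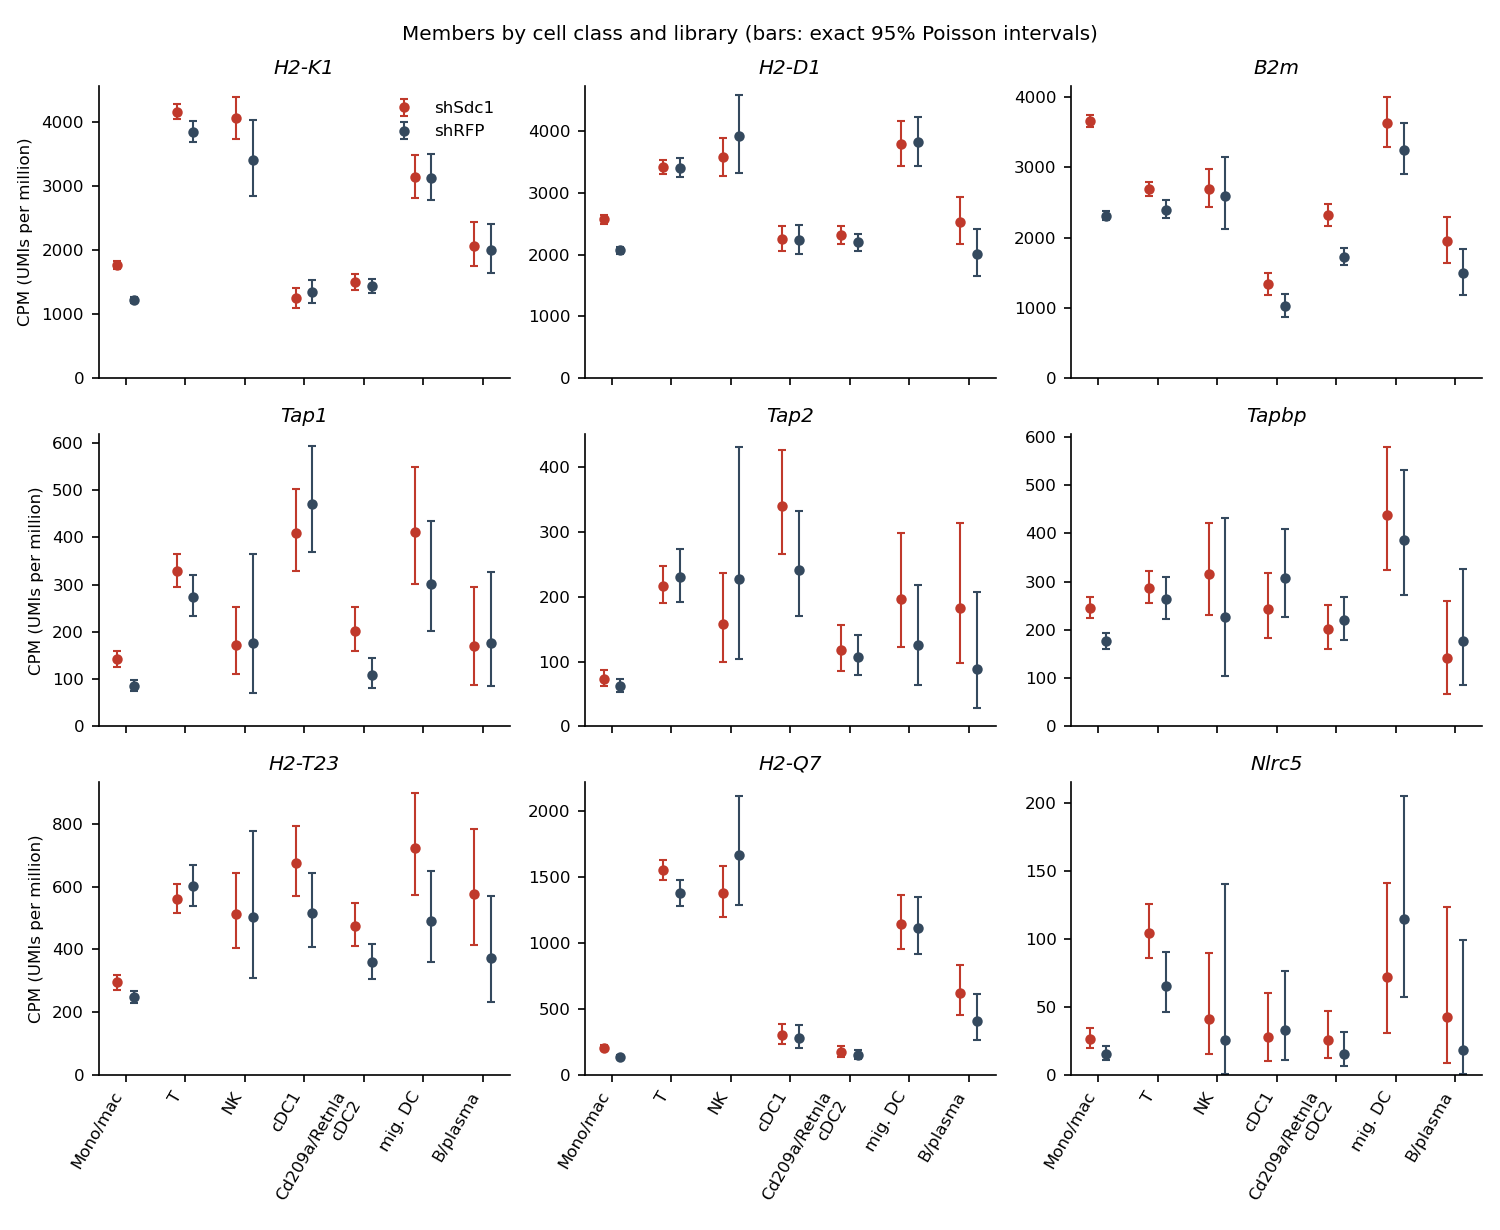
CPM of each member (y axes, from 0) in 7 cell classes (x axis), with shSdc1 in red to the left of shRFP in dark blue and exact 95% Poisson intervals. H2-Q7 separates T-like, NK-like and migratory DC-like cells from the other classes, and in monocyte/macrophage-like cells shSdc1 lies above shRFP for every member, with Tap2 and Nlrc5 intervals that touch or overlap.

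Over the 7 classes and the small plasmacytoid DC-like and neutrophil-like groups, 16 class-by-library points held at least 30 cells. Over these points each member was set against the summed CPM of the other 8, which comes mostly from H2-K1, H2-D1 and B2m. H2-D1 followed that sum most closely, with a Pearson r of 0.96 on the log2(CPM + 10) scale. With single members, the r of H2-D1 ran from 0.13 (Tap1) to 0.90 (H2-Q7). Against the sum, H2-Q7 had 0.88 and H2-K1 0.84. Tapbp had 0.65, B2m 0.55, H2-T23 0.46 and Nlrc5 0.45. Tap2 had 0.25 and Tap1 0.08, against 0.72 between Tap1 and Tap2 and 0.72 between Tap1 and Nlrc5. The lower values differed between the points of each library, which are not from the same groups. Plasmacytoid DC-like cells (34 in shSdc1, 27 in shRFP) gave a point in shSdc1 only. Neutrophil-like cells (27 in shSdc1, 37 in shRFP) gave a point in shRFP only. Over the 8 points of each library, Tap1 had -0.19 in shSdc1 and 0.33 in shRFP, Tap2 -0.13 in shSdc1 and 0.50 in shRFP, H2-T23 0.25 in shSdc1 and 0.66 in shRFP, and Nlrc5 0.15 in shSdc1 and 0.65 in shRFP. By Spearman rho, on ranks, the gaps were small. Tap1 had 0.10 in shSdc1 and 0.12 in shRFP, and Tap2 0 in shSdc1 and 0.10 in shRFP. H2-T23 had 0.21 in shSdc1 and 0.24 in shRFP, and Nlrc5 0.45 in shSdc1 and 0.52 in shRFP. With log2(CPM + 1), Nlrc5 had a Pearson r of 0.26 over all points. Points share libraries and differ in depth, so these values are descriptions. The 10 genes most like the summed members, among 5264 with at least 200 UMIs, were Ppp4r3a (r = 0.87), Nol7 (0.85), Krit1 (0.85), Supt4a (0.84), Gpx4 (0.84), Cntrl (0.82), Akap13 (0.82), Marf1 (0.82), Fryl (0.81) and Stat3 (0.81). None of them is in a list of class I genes, their regulators or interferon response genes.

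Between the libraries, all 9 members were higher in shSdc1 over all kept cells, with every interval above 1. Tap1, H2-Q7 and Nlrc5 were at least 1.5-fold higher, the size taken as a call. Those are 3 of 9 members, against 15.3% of the 10714 features with at least 20 UMIs. Called lower were 0 of 9, against 5.9% of features. H2-Q7 had 647 CPM in shSdc1 and 369 CPM in shRFP, a ratio of 1.76 [1.64 to 1.87]. Tap1 had 221 CPM in shSdc1 and 141 CPM in shRFP, a ratio of 1.58 [1.41 to 1.76]. Nlrc5 had 49.3 CPM in shSdc1 and 25.7 CPM in shRFP, a ratio of 1.92 [1.4997 to 2.47]. The other 6 lay between 1.20 (H2-D1) and 1.44 (H2-K1), with B2m at 3072 CPM in shSdc1 and 2218 CPM in shRFP, a ratio of 1.38 [1.35 to 1.42]. TMM scaling, which shifts every ratio in all kept cells by -0.14 on the log2 scale, put Tap1 at 1.43 and left H2-Q7 (1.59) and Nlrc5 (1.74) past 1.5-fold.

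The cell mixture also differed between the libraries. T-like cells were 32.9% of kept cells in shSdc1 and 21.6% in shRFP, NK-like cells 4.89% in shSdc1 and 1.57% in shRFP, and monocyte/macrophage-like cells 45.8% in shSdc1 and 58.5% in shRFP. The median log2 ratio of the members was 0.47 in all kept cells, against 0.14 over all features tested. With every cluster given the same weight in both libraries the median was 0.20, against 0.03 over all features. Under that weighting H2-Q7 had 554 CPM in shSdc1 and 483 CPM in shRFP, a ratio of 1.15, and H2-K1 had a ratio of 1.14. B2m had a ratio of 1.36, Tap1 1.35 and Nlrc5 1.54. The part of the mixture in the ratios of all kept cells was not tested.

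**Figure D3:**
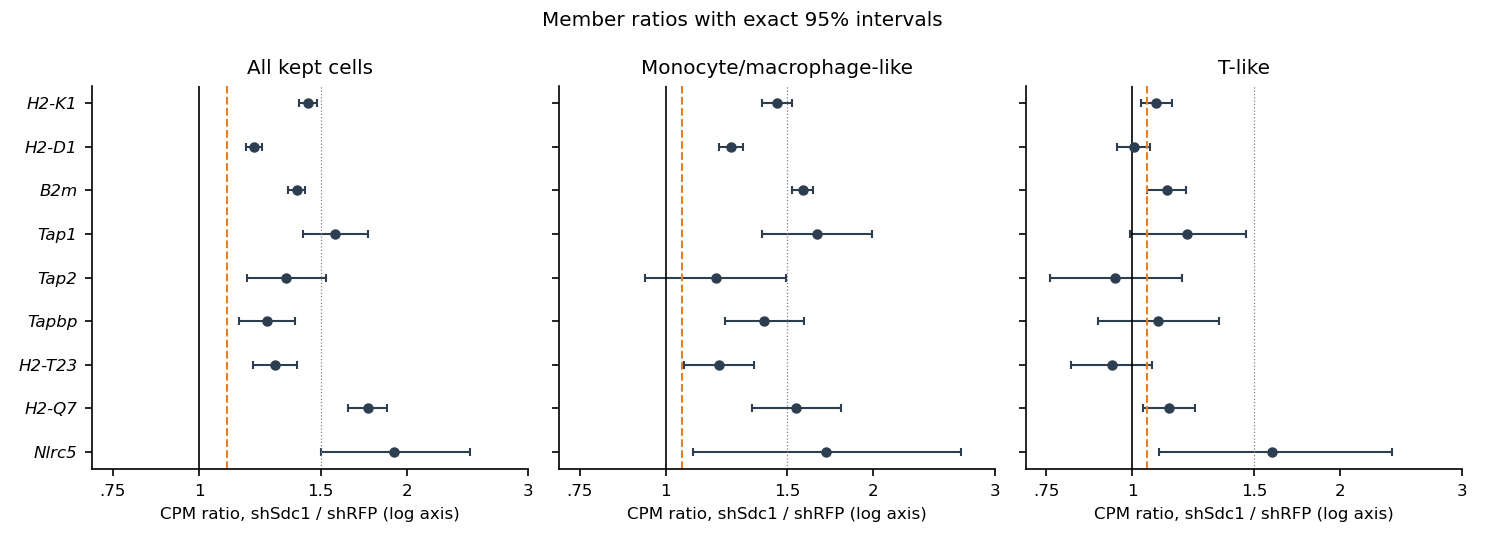
Ratio of CPM, shSdc1 over shRFP, on a log axis for each member in all kept cells (left), the monocyte/macrophage-like class (middle) and the T-like class (right), with exact 95% intervals, a solid line at 1, a dotted line at 1.5 and a dashed line at the median of all features tested. All 9 points lie right of 1 in all kept cells and in monocyte/macrophage-like cells, while in T-like cells most intervals include or lie close to 1.

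In the monocyte/macrophage-like class all 9 members were higher in shSdc1, and the intervals of 8 lay above 1. Of the 9, 4 were called higher (B2m, Tap1, H2-Q7 and Nlrc5), against 14.5% of 9225 features, and 0 were called lower, against 8.77%. The light chain B2m had 3658 CPM in shSdc1 and 2315 CPM in shRFP, a ratio of 1.58 [1.53 to 1.64]. Tap1 had 143 CPM in shSdc1 and 86.3 CPM in shRFP, a ratio of 1.65 [1.38 to 1.99]. The whole B2m interval lay above the 1.5-fold used for a call, and the Tap1 interval spanned it. H2-Q7 had 203 CPM in shSdc1 and 131 CPM in shRFP, a ratio of 1.55 [1.33 to 1.80], and Nlrc5 had 25.8 CPM in shSdc1 and 15.1 CPM in shRFP, a ratio of 1.71 [1.10 to 2.68], from 51 UMIs in shSdc1 and 37 in shRFP.

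The classical heavy chains were higher by less. H2-K1 had 1767 CPM in shSdc1 and 1219 CPM in shRFP, a ratio of 1.45 [1.38 to 1.52]. H2-D1 had 2571 CPM in shSdc1 and 2070.0 CPM in shRFP, a ratio of 1.24 [1.19 to 1.29]. Tapbp, the loading chaperone, had 245 CPM in shSdc1 and 176 CPM in shRFP, a ratio of 1.39 [1.22 to 1.59]. For H2-T23 the levels were 295 CPM in shSdc1 and 247 CPM in shRFP, a ratio of 1.19 [1.06 to 1.34], and for Tap2, the other transporter subunit, 73.4 CPM in shSdc1 and 62.2 CPM in shRFP, a ratio of 1.18 [0.934 to 1.49], the interval that included 1. The median log2 ratio of the members was 0.54, against 0.08 over all features tested. Scaling by TMM or by the median of ratios lowered every ratio in this class by 0.09 or 0.08 on the log2 scale, which left Tap1 (1.56 with TMM) and Nlrc5 (1.61) past 1.5-fold and B2m (1.49) and H2-Q7 (1.46) below it.

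Counted per cell, more monocyte/macrophage-like cells of shSdc1 held a UMI. With every cell thinned to 300 UMIs and shallower cells left out, B2m was found in 66.4% [64.4 to 68.3] of shSdc1 cells and 47.9% [46.1 to 49.8] of shRFP cells, and H2-K1 in 41.4% [39.4 to 43.5] of shSdc1 cells and 29.4% [27.7 to 31.1] of shRFP cells. H2-D1 was found in 51.6% [49.5 to 53.7] of shSdc1 cells and 45.4% [43.6 to 47.3] of shRFP cells. Without thinning the B2m shares were 88.5% in shSdc1 and 75.5% in shRFP. Class I genes are used by nearly all nucleated cells, so no cell type here serves as a blank for free RNA, and its part in these shares was not tested.

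The class is made of 6 clusters, which were formed without the members and without other class I and peptide loading genes. Their sizes differ between libraries, and the genes that lead them differ as well. The Ccl8- and Stab1-led cluster, with the complement gene C1qa and Apoe among its leading genes, held 1156 cells in shSdc1 and 443 in shRFP. The Il1a- and Cxcl3-led cluster, with inflammatory cytokine genes, held 394 in shSdc1 and 942 in shRFP, and the Gdf15- and Fabp4-led cluster 515 in shSdc1 and 477 in shRFP. The Hp- and Chil3-led cluster held 101 in shSdc1 and 608 in shRFP. The heat shock cluster, led by Hspb1 and Hspa1b, held 117 in shSdc1 and 332 in shRFP, and the interferon cluster, led by Ifit3 and Rsad2, 153 in shSdc1 and 112 in shRFP.

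B2m was higher in shSdc1 in all 6 clusters, each with an interval above 1. Its ratio was 1.37 [1.28 to 1.47] in the Ccl8- and Stab1-led cluster, where it had 3621 CPM in shSdc1 and 2636 CPM in shRFP. In the Il1a- and Cxcl3-led cluster it was 1.84 [1.71 to 1.98], from 3829.8 CPM in shSdc1 and 2082 CPM in shRFP. The smallest ratio, 1.23 [1.08 to 1.39], was in the interferon cluster, which had the highest B2m levels of all, 5289 CPM in shSdc1 and 4316 CPM in shRFP. Tap1 was above 1 in 5 of 6 clusters by its interval, from 1.78 [1.12 to 2.86] in the Gdf15- and Fabp4-led to 2.29 [1.19 to 4.18] in the Hp- and Chil3-led cluster, where it had 15 UMIs in shSdc1 and 46 in shRFP. In the heat shock cluster Tap1 had 7 UMIs in shSdc1 and 17 in shRFP and a ratio of 1.18 [0.414 to 2.998]. H2-D1 had an interval above 1 in 5 clusters, with ratios of 1.10 to 1.30 there, and 0.995 [0.823 to 1.20] in the Hp- and Chil3-led cluster. H2-K1 had an interval above 1 in 4 clusters, among them the Il1a- and Cxcl3-led with 1661 CPM in shSdc1 and 1111 CPM in shRFP and the interferon cluster with 2704 CPM in shSdc1 and 2164 CPM in shRFP.

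H2-Q7 had an interval above 1 in 4 clusters and a ratio of 0.856 [0.506 to 1.45] in the interferon cluster, where it stood at 281 CPM in shSdc1 and 328 CPM in shRFP. H2-T23 had 1 interval above 1, in the Ccl8- and Stab1-led cluster, at 321 CPM in shSdc1 and 200.1 CPM in shRFP, a ratio of 1.61 [1.26 to 2.07]. In the Il1a- and Cxcl3-led cluster its ratio was 0.907 [0.681 to 1.20]. Tap2 included 1 in all 6. Tapbp had an interval above 1 in 3 clusters, with 264 CPM in shSdc1 and 172 CPM in shRFP, a ratio of 1.53 [1.18 to 2.01] in the Ccl8- and Stab1-led. Nlrc5 reached 20 UMIs in 2 clusters, with 26 UMIs in shSdc1 and 4 in shRFP in the Ccl8- and Stab1-led and 10 UMIs in shSdc1 and 12 in shRFP in the Il1a- and Cxcl3-led.

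Called members numbered 4 of 9 in the Ccl8- and Stab1-led cluster against 12.9% of features, 5 of 9 in the Il1a- and Cxcl3-led against 13.2%, and 2 of 8 in the Gdf15- and Fabp4-led against 10.8%. In the Hp- and Chil3-led cluster 2 of 8 were higher against 16.6% and 1 (Tap2, with 2 UMIs in shSdc1 and 32 in shRFP) was lower against 23.2%. In the heat shock cluster 3 of 8 were higher against 14.7%, and in the interferon cluster 1 of 8 against 18.4%. The medians of the members were 0.53, 0.65 and 0.51 in the first 3 of these clusters and 0.18, 0.35 and 0.25 in the others, with medians over all features between -0.03 and 0.03. With the 6 clusters weighted alike, the class median was 0.41 and 3 members were called (Tap1 at 1.88, H2-Q7 at 1.55 and Nlrc5 at 1.63), against 8.91% of features.

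**Figure D4:**
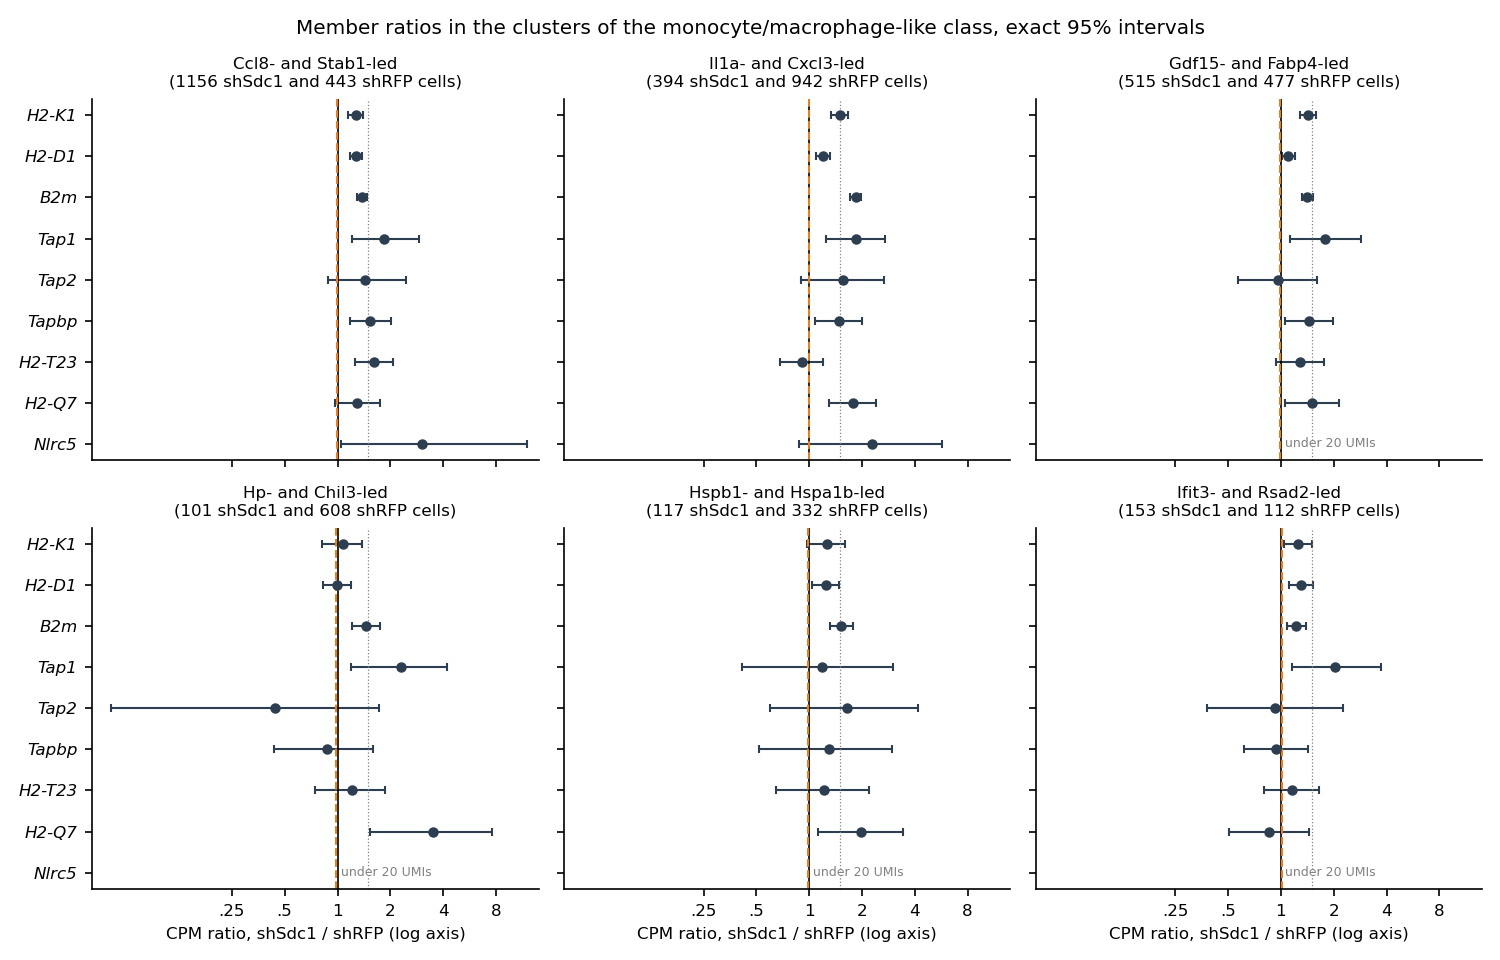
Ratio of CPM, shSdc1 over shRFP, on a log axis for each member in the 6 clusters of the monocyte/macrophage-like class, with exact 95% intervals, a solid line at 1, a dotted line at 1.5 and a dashed line at the median of all features. B2m lies right of 1 in all 6 panels, and Tap2 intervals cross 1 in all 6.

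Other genes of the pathway gave a mixed picture in monocyte/macrophage-like cells. Of 14 peptide loading and trimming genes 1 was called higher, against 14.5% of features. It was the immunoproteasome subunit Psmb9, with 232 CPM in shSdc1 and 150.2 CPM in shRFP, a ratio of 1.54 [1.34 to 1.78]. Psmb9 neighbours Tap1, and its annotated first exon overlaps the Tap1 start on the opposite strand. The median log2 ratio of these 14 genes was 0.08, the same to 2 decimals as over all features. Among other class I heavy chains 4 of 10 measured were called higher, against 14.5% of features, and 1 lower, against 8.77%. Their median was 0.53. The higher ones included H2-Q6, a near copy of H2-Q7, at 45.1 CPM in shSdc1 and 27.4 CPM in shRFP, a ratio of 1.64 [1.18 to 2.29]. They also included Fcgrt, the heavy chain of the neonatal Fc receptor, at 108 CPM in shSdc1 and 50.7 CPM in shRFP, a ratio of 2.14 [1.70 to 2.69], and the iron regulator Hfe, at 59.8 CPM in shSdc1 and 31.9 CPM in shRFP, a ratio of 1.87 [1.40 to 2.53]. These 2 pair with beta-2-microglobulin and do not present peptides. The fourth was Ulbp1, with 15 UMIs in shSdc1 and 8 in shRFP, and the lower one was Cd1d1, with 2 UMIs in shSdc1 and 20 in shRFP; both were named after their values were seen.

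The 18 measured regulators had a median log2 ratio of 0.10, against 0.08 over all features. Interferon response genes were called higher in 8 of 20, against 14.5% of features, and lower in 0 of 20, against 8.77%, with a median of 0.47. The chemokine gene Cxcl9 had 352 CPM in shSdc1 and 123 CPM in shRFP, a ratio of 2.86 [2.50 to 3.29], and the GTPase gene Iigp1 had 41.5 CPM in shSdc1 and 13.1 CPM in shRFP, a ratio of 3.17 [2.08 to 4.93]. Class II presentation genes were called in 0 of 6 either way, against the same shares, with a median of 0.06. In the Ccl8- and Stab1-led cluster, though, 4 of 6 class II genes (H2-Aa, H2-Ab1, H2-Eb1 and Cd74) were called higher, with Cd74 at 4615 CPM in shSdc1 and 3046 CPM in shRFP, a ratio of 1.52 [1.42 to 1.61], as were 11 of 18 interferon response genes, against 12.9% of features.

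Dissociation stress genes ran the other way in the class. They were called lower in 7 of 12 in shSdc1, against 8.77% of features, and summed to 7391 CPM there, against 12590 CPM in shRFP, with Hspa1a at 711 CPM in shSdc1 and 1739.8 CPM in shRFP, a ratio of 0.409 [0.385 to 0.434]. Without the heat shock cluster the member median was 0.51 and 4 of 9 members were called, against 13.8% of features. Over the 6 clusters the stress median lay between -0.57 (Hp- and Chil3-led) and 0.06 (Il1a- and Cxcl3-led). In the Hp- and Chil3-led cluster 6 of 12 stress genes were called lower, against 23.2% of features, and 0 higher, against 16.6%. The part of stress in the member values was not tested. Melanoma genes summed to 216 CPM in shSdc1 and 102 CPM in shRFP in the class, with 7 of 8 detected, and their part in the result was not tested.

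In T-like cells the members differed little between libraries. Only Nlrc5 was called, with 104 CPM in shSdc1 and 65.5 CPM in shRFP, a ratio of 1.59 [1.09 to 2.38], which is 1 of 9 members higher against 12.7% of features, and 0 of 9 lower against 7.46%. H2-K1 had 4169 CPM in shSdc1 and 3850.4 CPM in shRFP, a ratio of 1.08 [1.03 to 1.14]. B2m had 2693 CPM in shSdc1 and 2402 CPM in shRFP, a ratio of 1.12 [1.051 to 1.20], and H2-Q7 had 1553 CPM in shSdc1 and 1376 CPM in shRFP, a ratio of 1.13 [1.04 to 1.23]. These 3 intervals lay above 1 by a small margin. H2-D1 had 3419 CPM in shSdc1 and 3406 CPM in shRFP, a ratio of 1.004 [0.9496 to 1.06], so that any difference in either direction was within 1.06-fold by counting error. Tap1 had 1.20 [0.990 to 1.46], Tap2 0.944 [0.759 to 1.18], Tapbp 1.09 [0.893 to 1.33] and H2-T23 0.933 [0.815 to 1.07] as ratios, all with intervals that included 1. The median was 0.12, against 0.07 over all features.

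In the summed level, T-like sub-clusters differed more from each other than between libraries. The members summed to 17553 CPM in regulatory-like T cells of shSdc1 and 17265 CPM in those of shRFP, above every class and cluster described here. CD8-like T cells had 11671 CPM in shSdc1 and 11326 CPM in shRFP. In naive-like T cells the sum was 10833 CPM in shSdc1 and 9492 CPM in shRFP. Naive-like cells were 12.4% of T-like cells in shSdc1 and 33.8% in shRFP. Regulatory-like cells were 34.7% in shSdc1 and 27.9% in shRFP, and CD8-like cells 34.5% in shSdc1 and 26.7% in shRFP. The part of this mixture in the T-like ratios was not tested. H2-K1 and B2m intervals included 1 in each named sub-cluster, while that of H2-Q7 lay above 1 in CD8-like cells (1.20 [1.03 to 1.39]). The sum in regulatory-like cells had a ratio of 1.02 [0.967 to 1.07], and in CD8-like cells of 1.03 [0.980 to 1.08]. Nlrc5 in naive-like T cells had 15 UMIs in shSdc1 and 5 in shRFP, a ratio of 5.02 [1.73 to 17.7], and in regulatory-like cells 29 UMIs in shSdc1 and 7 in shRFP, a ratio of 1.996 [0.856 to 5.40]. H2-D1 was lower in shSdc1 in CD8-like (0.897 [0.815 to 0.989]) and cycling-like T cells (0.829 [0.714 to 0.964]) and higher in naive-like T cells (1.29 [1.08 to 1.54]), all within 1.5-fold. Members called higher were 1 of 9 in naive-like (Nlrc5, against 18% of features) and 1 of 9 in regulatory-like T cells (Nlrc5, 15%). In CD8-like cells 0 of 9 were called higher, against 14.9%, and in cycling-like cells 0 of 8, against 19%. Tap2, with 10 UMIs in shSdc1 and 28 in shRFP, was called lower in naive-like T cells, 1 of 9 members against 13.4%. Stress genes were called lower in 8 of 12 in T-like cells, against 7.46% of features, and their part in the member values was not tested.

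NK-like and dendritic cell groups were smaller and gave wide intervals. In NK-like cells, which read class I through inhibitory receptors, 0 of 8 measured members were called, against 21.2% of features higher. H2-K1 had 4065 CPM in shSdc1 and 3408 CPM in shRFP, a ratio of 1.19 [0.988 to 1.45], and H2-Q7 had 1378 CPM in shSdc1 and 1666 CPM in shRFP, a ratio of 0.827 [0.623 to 1.11]. In conventional DC 1-like cells 0 of 8 were called, against 16%, and B2m alone had an interval above 1, at 1337 CPM in shSdc1 and 1026 CPM in shRFP, a ratio of 1.30 [1.07 to 1.59]. Interferon response genes were called higher in 7 of 8 measured in these cells, out of 20 listed, against 16% of features. The member median was 0.06.

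Conventional DC 2-like cells, led by Cd209a and Retnla, had 1 of 8 members called, Tap1, at 202 CPM in shSdc1 and 109 CPM in shRFP, a ratio of 1.86 [1.29 to 2.70], against 12.1% of features. B2m there had 2319 CPM in shSdc1 and 1730.5 CPM in shRFP, a ratio of 1.34 [1.22 to 1.48], and H2-T23 476 CPM in shSdc1 and 359.6 CPM in shRFP, a ratio of 1.32 [1.07 to 1.64]. The make-up of this class depended on the processing. Without doublet removal a Retnla- and Lyz1-led cluster stood apart and stayed unnamed, with 143 cells in shSdc1 and 91 in shRFP. The Cd209a-led cluster then held 229 cells in shSdc1 and 332 in shRFP. The part of this mixture in the ratios of the class was not tested. In migratory DC-like cells 1 of 8 was called, Tap2, from 22 UMIs in shSdc1 and 12 in shRFP with a ratio of 1.57 [0.746 to 3.49], against 14.3%. H2-T23 alone had an interval above 1 there, at 725 CPM in shSdc1 and 489.8 CPM in shRFP, a ratio of 1.48 [1.02 to 2.17], and H2-K1, H2-D1 and H2-Q7 had ratios of 0.99 to 1.03. B and plasma-like cells had 2 of 7 called, H2-T23 and H2-Q7 with at most 44 UMIs each per library, against 10.2%, and the median over all features was -0.33. B2m thus had a ratio above 1 in all 7 classes, with the interval above 1 in 4 of them, and no member had its interval below 1 in any class. Whether classes differed from each other in these ratios cannot be tested with 1 library per group.

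**Figure D5:**
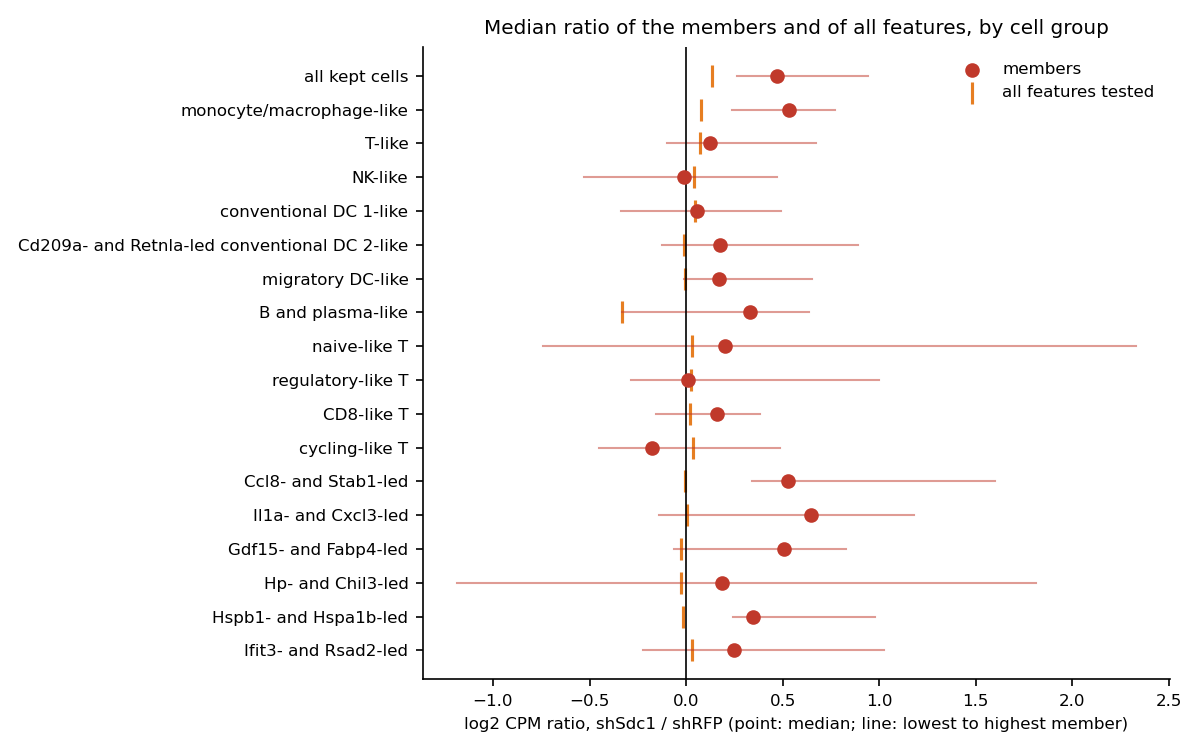
Median log2 ratio of CPM, shSdc1 over shRFP (x axis), of the measured members (red points, with a line from the lowest to the highest member) and of all features tested (orange marks) in each cell group (y axis). Members stand at 0.54 in the monocyte/macrophage-like and 0.12 in the T-like class, with the all-feature marks at 0.08 and 0.07.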

How the data were processed

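Live CD45+ cells from pooled B16 tumors were profiled with a 3′ droplet kit, 1 library per group. The deposited matrices give a raw UMI count for every gene in every barcode. Per the file headers the authors used Cell Ranger 6.1.1, and per the submitters' processing notes the build was mm10. The sources used here give neither the annotation release nor the strand setting. The libraries held 5902 barcodes with 4370725 UMIs (shSdc1) and 5786 with 4255928 UMIs (shRFP).

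Barcodes with at least 200 genes and under 10% mitochondrial UMIs were used, 5576 in shSdc1 and 5225 in shRFP. Scrublet marked 0 of them in shSdc1 and 1 in shRFP by its own threshold, which had not worked, so the highest scores were removed at 0.8% per 1000 barcodes, 263 in shSdc1 and 242 in shRFP. Both libraries were clustered together in scanpy 1.11.5 (2000 variable genes, 30 components, 15 neighbours, Leiden at resolution 1), leaving out the members, other class I and peptide loading genes, and mitochondrial, ribosomal and antigen receptor variable genes. The 16 clusters were named "-like" from marker lists by mean log2 fold (at least 0.5, with 3 markers at 2-fold). T-like cells were clustered again into 7 sub-clusters, of which 2 stayed unnamed. Names were rebuilt here, and the naming rule was settled after the data were seen.

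UMIs were summed per class and library. CPM has exact Poisson intervals, a ratio an exact conditional binomial interval and a share an exact Clopper-Pearson interval, all at 95%. A feature counted as measured from a total of 20 UMIs over both libraries, in groups of at least 30 cells in each, and as called from 1.5-fold. The intervals cover counting error only. Members, lists, motifs and thresholds were chosen with earlier results of these data known. List genes named are those called with at least 50 UMIs, up to 5 per list. They were picked by the interval bound nearest 1, and not all are named. Alternatives covered filters, doublets, scaling (edgeR's TMM, median of ratios, UMIs per cell), clustering, weighting and thinning. Of the features, 31107 of 31253 were in GENCODE M21. The result of 1 listed regulator is not reported here.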

Additional observations from a re-analysis of the deposited data

Results flagged for a closer look

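Barcodes under 200 genes, which no comparison uses, also held member transcripts. The 9 members summed to 11036 CPM over 276 such barcodes in shSdc1, against 10140.2 CPM in kept cells. In shRFP they summed to 9121 CPM over 530 such barcodes, against 7486 CPM in kept cells. They are given because the members were detected there, outside every comparison, and whether these barcodes hold cells or free RNA was not tested. At least 1 UMI of the 4 leukocyte genes was in 55.1% of these barcodes in shSdc1 and 57.4% in shRFP.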

How the results depend on the processing

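The member median in all kept cells was 0.47 (log2) and 0.20 to 0.47 over the alternatives, all above 0. It moved to 0.33 with TMM, 0.33 with median-of-ratios scaling and 0.20 with clusters weighted alike; these 2 scalings shift every ratio in all kept cells by -0.14. In monocyte/macrophage-like cells the median of 0.54 moved to 0.45 with TMM, 0.46 with the median of ratios and 0.41 with clusters weighted alike. It was 0.51 without the heat shock cluster, an alternative chosen after seeing the data. The 4 called members there became 2 with TMM and 2 with the median of ratios (11.4% and 11.7% of features). In T-like cells the median of 0.12 reversed to -0.15 under a minimum of 500 genes, and was up to 0.35 with UMIs per cell. Under that minimum only a cluster with Tnfrsf4, Ikzf2 and Foxp3 among its leading genes was named T-like. A cluster led by Xcl1 and Gzma, with Cd8a among its leading genes, stayed unnamed. The value of -0.15 thus describes a different set of cells, and the part of this change in the reversal was not tested. Counting UMIs per cell shifts every T-like ratio upward by the same amount on the log2 scale. Pearson likeness to the sum of the other 8 members reversed within shSdc1 alone for Tap1 (-0.19) and Tap2 (-0.13). Within shRFP alone it was 0.33 and 0.50. The smallest cell groups behind these points differ between the libraries. Spearman values were 0.10 (Tap1) and 0 (Tap2) within shSdc1, and 0.12 and 0.10 within shRFP. Thinning to 500 UMIs raised every share of cells with a UMI. No paired analysis was possible because each group is 1 library. Depth limits Nlrc5 to sums of at most 198 UMIs per library.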
